A study of Mus musculus with 22 samples.

Results

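The Notch pathway was followed through 10 genes: the receptors Notch1, Notch2, Notch3 and Notch4, the ligands Jag1, Jag2, Dll1 and Dll4, and the target genes Hes1 and Hey1. They were picked by symbol from a table of raw probe counts of mouse pancreas, in which 13 of 30146 probes, and 10 of 21450 gene symbols, belong to them. The genes were selected on earlier measured values of these same libraries, and the 2 library classes described below were also chosen by measured counts, so the class differences are given as descriptions with no test. A gene's value is the sum of its probes: Notch1, Notch4 and Dll1 have 2 probes each and the others have 1.

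Notch receptors sit in the cell membrane and are switched on by Jagged and Delta-like ligands on a neighbouring cell. Ligand binding lets ADAM proteases and then gamma-secretase cut the receptor, and the freed intracellular part moves to the nucleus, where it binds RBPJ and Mastermind proteins and turns on repressor genes of the HES and HEY families. In the developing pancreas the pathway is known to hold progenitors back from the endocrine fate, through Hes1 acting on Neurog3, and in vessels Dll4, Notch4 and Hey1 are known endothelial genes while Notch3 is a receptor of pericytes and smooth muscle.

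The study treated female C57Bl/6 mice with corn oil, the vehicle, or with the dioxin TCDD, an agonist of the aryl hydrocarbon receptor, at 20 ng/kg/d by subcutaneous injection 2 times a week, from before mating until birth. Every group is whole pancreas taken on the day of birth. By the labels 4 dams received corn oil and 4 received TCDD. The offspring are 3 females and 3 males of control litters and 4 females and 4 males of TCDD litters, with 1 of each sex from a litter. RNA was read with TempO-Seq, in which pairs of short probes are ligated on each target and counted by sequencing. Probes capture their targets with unequal efficiency, so levels were compared between libraries and not between genes.

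The stage labels and the stage genes disagree in 8 of 22 libraries, so libraries were classed by counts. A library was of newborn type where the count of Afp, the fetal plasma protein alpha-fetoprotein, exceeded that of Pnlip, pancreatic lipase, and of adult type otherwise. The 14 newborn-type libraries had 468 to 1487 of Afp in CPM, counts scaled to a common library total, and 22.3 to 91.6 of Pnlip, and the 8 adult-type libraries had 0 to 1.25 of Afp and 40765 to 48925 of Pnlip. Of the newborn-type libraries 4 are labelled dam, and of the adult-type libraries 4 are labelled pup (1 female and 3 male, all labelled TCDD). Newborn type holds 8 libraries labelled control and 6 labelled TCDD, and adult type holds 2 and 6. Library totals were 11223816 to 34911410 counts in newborn type and 14068304 to 19148777 in adult type, and the 10 genes together took 519 to 1361 counts of a newborn-type library but 121 to 361 of an adult-type one. The 20 most abundant probes held 69.8 to 74.7% of an adult-type library and 47.1 to 59.6% of a newborn-type one. Values below are CPM scaled by trimmed mean of M-values (TMM), whose factors were 1.22 to 1.88 in newborn type and 0.355 to 0.576 in adult type. On this scale 0 counts allow a level of up to 0.0704 to 0.171 in a newborn-type library and up to 0.307 to 0.469 in an adult-type one (3 counts). The counts are reads without molecular identifiers, so these limits and the intervals below cover counting error only.

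Over all 22 libraries Notch2 had the highest log2 ratio of newborn over adult type among the receptors and Notch4 the lowest, and the DNA just upstream of their RefSeq start sites also differs. That order rests on the libraries chosen: without those whose class goes against the stage label, Notch3 (2.94) lay above Notch2 (2.05) and Notch1 (-0.10) below Notch4 (0.11). In the adult-type libraries kept there, Notch3 had 1 read, in the control dam 7, so its place rests on that read. RefSeq promoter windows (GRCm38.p6, 250 bases before to 50 after a start site) were found for 8 of the 10 genes, in 9 windows. None was found for the target genes Hes1 and Hey1. The parts of the Notch2 and Notch4 windows upstream of any annotated exon are printed to show the difference in sequence, 5′ to 3′ on the plus strand, with each CG dinucleotide in capitals, for chr3:98013288-98013526 and chr17:34564045-34564267.
Notch2: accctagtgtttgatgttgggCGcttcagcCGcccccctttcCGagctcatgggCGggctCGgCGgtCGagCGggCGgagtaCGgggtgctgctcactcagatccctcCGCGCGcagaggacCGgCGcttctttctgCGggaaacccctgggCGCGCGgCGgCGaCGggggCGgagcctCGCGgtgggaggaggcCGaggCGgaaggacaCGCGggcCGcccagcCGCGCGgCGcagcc
Notch4: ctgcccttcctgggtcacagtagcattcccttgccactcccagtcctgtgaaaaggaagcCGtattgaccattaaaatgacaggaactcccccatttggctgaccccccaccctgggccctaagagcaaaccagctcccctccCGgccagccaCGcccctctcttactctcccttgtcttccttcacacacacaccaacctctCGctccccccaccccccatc
The Notch2 stretch of 239 bases holds 34 CG dinucleotides and the Notch4 stretch of 223 bases holds 4. Over the full windows of 300 bases the counts were 41 and 5, and 3.46% and 62.0% of the 32851 windows in the table hold at least as many. The median was 23 in the 9 windows of these genes and 7 in all windows. TGGGAA, the core of the RBPJ binding sequence, or its complement on the other strand TTCCCA, was in 0 of the 9 windows, against 25.6% of all windows. The 9 windows belong to receptors and ligands only, so the target genes Hes1 and Hey1 were not looked at. Their median share of G and C was 63.7%, beside 52.7% in all windows. These letters describe the windows alone, since no measurement here bears on methylation or binding.

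Notch1, a receptor of many tissues, was close to level between the classes on the TMM scale. Its level ran from 9.84 through a median of 13.2 to 16.3 in newborn-type libraries. In adult-type libraries it was 8.37, 9.52, 11.3, 14.9, 15.6, 16.9, 21.2 and 21.4. The adult-type values spread to both sides of the newborn-type range, with 2 below it, 3 within it and 3 above it. The means were 13.1 ± 1.91 (SD, n = 14) and 14.9 ± 4.94 (SD, n = 8), a log2 ratio of newborn over adult type of -0.19. Both Notch1 probes gave a ratio of that sign, -0.18 for Notch1_31178 and -0.44 for Notch1_58584.

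Notch2, a receptor linked to biliary and duct development, was detected in each newborn-type library and listed at 0 in 5 of 8 adult-type ones. It ran from 0.283 through 0.809 to 1.20 in newborn type. The adult-type libraries above 0 were the control dam 5 at 0.312, the TCDD dam 11 at 0.454 and the TCDD male pup 11 at 0.588. The classes overlap, with 10 of 14 newborn-type libraries above the highest adult-type one. Summed, the reads were 308 against 9, a depth-scaled ratio of 5.33 with a 95% counting interval of 2.77 to 11.8, and the log2 ratio of the class means was 2.26. Leaving out the TCDD male pup 11 raised that ratio to 2.89.

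Notch3, the mural cell receptor, could not be resolved in adult type. It ran from 0 through 0.266 to 0.531 in newborn type and was listed at 0 in 6 of 8 adult-type libraries, with 0.134 in the control dam 7 and 0.425 in the TCDD male pup 8. The newborn-type median lies under the smallest level that 0 counts would allow in an adult-type library. The reads were 96 against 4, a ratio of 3.74 with an interval of 1.41 to 14.01, and the log2 ratio of the means went from 1.88 to 3.75 without the TCDD male pup 8, which held 3 of the 4 reads.

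Notch4, an endothelial receptor, was the gene of the 10 with the lowest ratio, and its 2 probes differed in sign. Its level ran from 0.151 through 0.410 to 1.04 in newborn type. In adult type it was 0.268, 0.446, 0.457, 0.605, 0.625, 0.883, 1.28 and 2.25. Of the adult-type libraries 6 fall within the newborn-type range and the TCDD male pup 8 and the TCDD female pup 6 lie above it. The log2 ratio was -0.84 for the gene, -1.31 for probe Notch4_68092 and 0.35 for probe Notch4_73438. The highest library took all of its 22 reads from the first of these probes. Without the libraries whose class goes against the stage label the gene's ratio was 0.11, so the direction of Notch4 rests on the libraries chosen.

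Among the ligands Jag1 had close class means, although most adult-type libraries lay under the newborn-type range. Dll1 and Dll4 were higher in newborn type in most libraries. Jag1, the Jagged ligand of duct and progenitor cells, ran from 7.04 through 8.82 to 10.6 in newborn type. It was 4.85, 4.999, 6.65, 6.84, 6.97, 7.37, 7.46 and 11.1 in adult type, where 5 of the 8 libraries lay under the newborn-type range and the TCDD female pup 6 lay above it. The means were 8.73 ± 1.30 (SD, n = 14) and 7.02 ± 1.91 (SD, n = 8), a log2 ratio of 0.31. Jag2, the other Jagged ligand, gave too few reads to compare, 30 in newborn type and 1 in adult type, a ratio of 4.68 with an interval of 0.777 to 191. Its highest newborn-type level, 0.251, is under what 0 counts allow in any adult-type library.

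Dll1, the ligand tied to early endocrine differentiation, stood at 0.728 through 1.83 to 3.21 in newborn type. It was 0, 0.151, 0.297, 0.312, 0.410, 0.425, 0.609 and 0.938 in adult type. Only the control dam 7, at 0.938, reached into the newborn-type range, and 12 of 14 newborn-type libraries lay above it. The means were 1.88 ± 0.663 (SD, n = 14) and 0.393 ± 0.286 (SD, n = 8), a log2 ratio of 2.26, and the 2 probes gave 2.07 and 2.74. Without the control dam 7 the classes did not overlap.

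Dll4, the ligand of arterial and sprouting endothelium, showed the cleanest split of the 10 genes, with 13 of 14 newborn-type libraries above each adult-type library. It ran from 1.23 through 1.85 to 2.80 in newborn type. It was 0.151, 0.441, 0.446, 0.512, 0.536, 0.761, 0.992 and 1.25 in adult type, the last in the control dam 5, and the classes did not overlap without that library. The means were 1.86 ± 0.484 (SD, n = 14) and 0.636 ± 0.349 (SD, n = 8), a log2 ratio of 1.55.

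Of the target genes, Hes1 overlapped widely between the classes and Hey1 had most adult-type libraries below newborn type. Hes1, a repressor that keeps pancreatic progenitors undifferentiated, ran from 0.582 through 1.75 to 2.34 in newborn type. It was 0, 0.756, 0.892, 1.02, 1.13, 1.18, 1.52 and 1.87 in adult type, where 7 of 8 libraries fell within the newborn-type range and the control dam 7 was at 0. The means were 1.62 ± 0.550 (SD, n = 14) and 1.05 ± 0.553 (SD, n = 8), a log2 ratio of 0.63. Hey1, a HEY repressor of vascular cells, ran from 0.567 through 1.13 to 1.91 in newborn type. It was 0, 0.134, 0.147, 0.156, 0.307, 0.446, 1.22 and 1.70 in adult type. The adult-type values fall apart, with 6 libraries below all newborn-type ones and the TCDD dam 8 and the TCDD male pup 8 inside the newborn-type range, and the log2 ratio was 1.12 for the means, 2.29 for the medians and 2.74 without the libraries labelled TCDD.

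**Figure D1:**
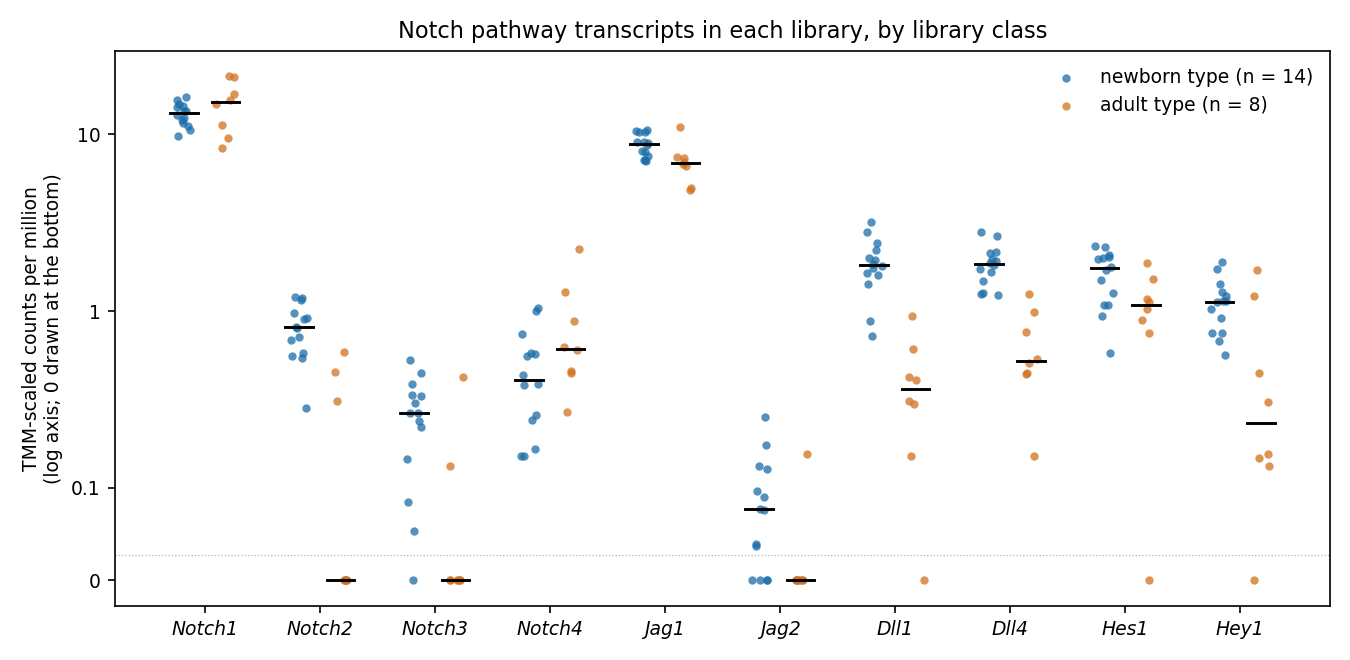
Each point is 1 library, the vertical log axis gives the gene's TMM-scaled CPM, values of 0 are drawn at the bottom under the dotted line, and black bars are class medians (14 newborn-type and 8 adult-type libraries). Dll1 and Dll4 separate the classes in all but a few libraries, and Notch1 overlaps. For Jag1, 5 of 8 adult-type points lie under the newborn-type range, and most adult-type points of Notch2, Notch3 and Jag2 are at 0.

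Across the 10 genes the class ranges overlapped in each case on the TMM scale, so 0 of 10 stood wholly above in newborn type, where 13.0% of the 12041 genes passing the count filter did, and 0 of 10 wholly above in adult type, where 10.3% did. The median log2 ratio of the 10 genes was 1.33, beside 0.06 for all genes, and 8 of 10 had a ratio above 0, as did 52.8% of all genes. The values for all genes cover only genes passing the filter, as 8 of the 10 did. Notch3 and Jag2 did not pass. Their ratios, 1.88 and 2.04, rest on 4 and 1 adult-type reads, raise the median of the 10 and count among the 8 above 0. The scale sets the direction of part of these values. In adult-type libraries the 20 most abundant probes held 69.8 to 74.7% of the reads. As CPM of the library total, the median of all genes moved to 1.94, and 97.8% of genes had a ratio above 0. On that scale 7 of 10 genes did not overlap (Notch1, Notch2, Jag1, Dll1, Dll4, Hes1 and Hey1), beside 70.6% of all genes, and 0 of 10 were wholly above in adult type, beside 0.482%. These 7 were all among the 8 genes that passed the filter. Notch1 and Notch4 turned to 1.64 and 1.01, yet both stayed below the median of all genes, and the other 8 genes lay above it on each scale. In whole tissue, fewer cells of a type and less RNA per cell cannot be told apart.

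**Figure D2:**
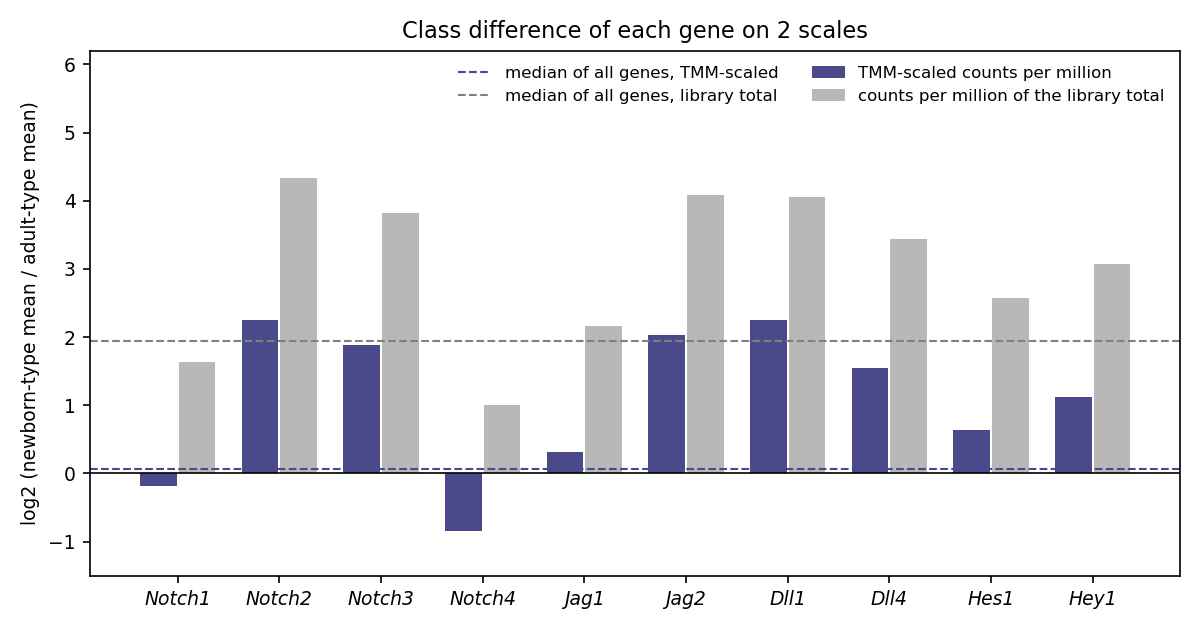
Bars give the log2 ratio of the newborn-type mean over the adult-type mean for each gene, on TMM-scaled CPM (dark) and on CPM of the library total (light), and dashed lines give the median of all 12041 genes on each scale (0.06 and 1.94). Notch1 and Notch4 fall below the median line of their scale and change sign between the scales, and the other 8 genes lie above it.

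A wider list of 70 further pathway genes was mixed in direction on the TMM scale. There 8 of the 70 were wholly above in newborn type (13.0% of all genes were), 7 wholly above in adult type (10.3%) and 55 overlapped, and 53 passed the filter with a median log2 ratio of 0.11. On library-total CPM 44 of the 70 were wholly above in newborn type (70.6% of all genes) and 0 in adult type (0.482%). These shares of all genes cover only genes passing the filter. Every listed gene wholly above in either class, on either scale, was among the 53 that passed. The counts 8, 7 and 44 are therefore to be read against 53 when set beside the shares. All 8 genes wholly above in newborn type on the TMM scale were so on both scales. Of the 7 wholly above in adult type, Kat2a, Kat2b and Fbxw7 were instead wholly above in newborn type on library-total CPM (log2 ratios 1.30, 0.95 and 0.79), and Rfng, Furin, Psen2 and Ptf1a overlapped with ratios above 0. The values that follow are on the TMM scale unless named otherwise. Dlk1, a Delta-like protein of fetal tissues that lacks the receptor-binding domain of the canonical ligands, differed most, at 242 to 419 in newborn type against 0.149 to 3.02 in adult type (log2 ratio 8.13). Among the genes that prepare ligands and receptors, Neurl1a, a ligand ubiquitin ligase, was wholly above in newborn type (3.09), while Rfng, a Fringe sugar transferase, and Furin, the protease that matures the receptor, were wholly above in adult type (-1.72 and -1.14). Lfng and Mib1, a second Fringe and the main ligand ubiquitin ligase, overlapped (0.59 and -0.40). Mfng was under the filter with 100 against 9 reads, not scaled for depth (log2 ratio of scaled means 0.81).

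Of the cutting machinery 7 of 9 genes, and of the nuclear complex 8 of 10, overlapped on the TMM scale. The others were wholly above in adult type (10.3% of all genes were) and none in newborn type (13.0%). On library-total CPM 6 of 9 and 8 of 10 were wholly above in newborn type, beside 70.6% of all genes. The shares of all genes cover genes passing the filter, which 9 of 9 and 9 of 10 of these genes did. The sheddase Adam10 (-0.13) and the gamma-secretase subunit Ncstn (0.25) overlapped, and the catalytic subunit Psen2 was wholly above in adult type, at 36.6 to 44.0 against 13.4 to 20.3 (-1.30). The DNA-binding partner Rbpj ran from 1.64 to 3.21 in newborn type and from 0.567 to 2.08 in adult type (0.82), and its acinar relative Rbpjl ran from 10.3 to 22.01 and from 12.8 to 74.2 (-1.29). Rbpj and Rbpjl thus had ratios of opposite sign on this scale, while on library-total CPM both were positive (2.71 and 0.52). Of the co-activators, the acetyltransferases Kat2a (-0.59) and Kat2b (-0.97) were wholly above in adult type on the TMM scale only, and Maml1 had 1 read in newborn type and 4 in adult type. Of the co-repressors, the deacetylases Hdac1 (1.25) and Hdac2 (0.48) were wholly above in newborn type.

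Among the modulators Numbl (2.63), a Numb relative, was wholly above in newborn type and Fbxw7 (-1.10), which marks the Notch intracellular part for decay, wholly above in adult type on the TMM scale only, while Numb overlapped (0.24). Of the other target genes Ccnd1, cyclin D1, was wholly above in newborn type (4.52 to 9.71 against 1.47 to 3.81, log2 ratio 1.47), and Heyl (1.13) and Sox9 (1.49), the duct and progenitor factor, overlapped. Hes5, Hes6 and Hey2 were under the filter, with 13 against 3, 91 against 15 and 58 against 6 reads, as were Nrarp with 5 against 0 and Dll3 with 9 against 3. These sums are not scaled for depth or for the number of libraries. The log2 ratios of the TMM-scaled means were -0.61 for Hes5, -0.19 for Hes6, 0.85 for Hey2 and -0.85 for Dll3. Of the pancreas factors tied to Notch, Neurod1 was wholly above in newborn type (11.3 to 20.0 against 1.09 to 6.18, log2 ratio 2.31) and the acinar factor Ptf1a wholly above in adult type (-1.42). Neurog3, the endocrine progenitor factor repressed by Hes1, had 80 reads in newborn type and 1 in adult type, and Pdx1, which pancreatic cells are known to express, was listed at 0 in all 22 libraries.

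**Figure D3:**
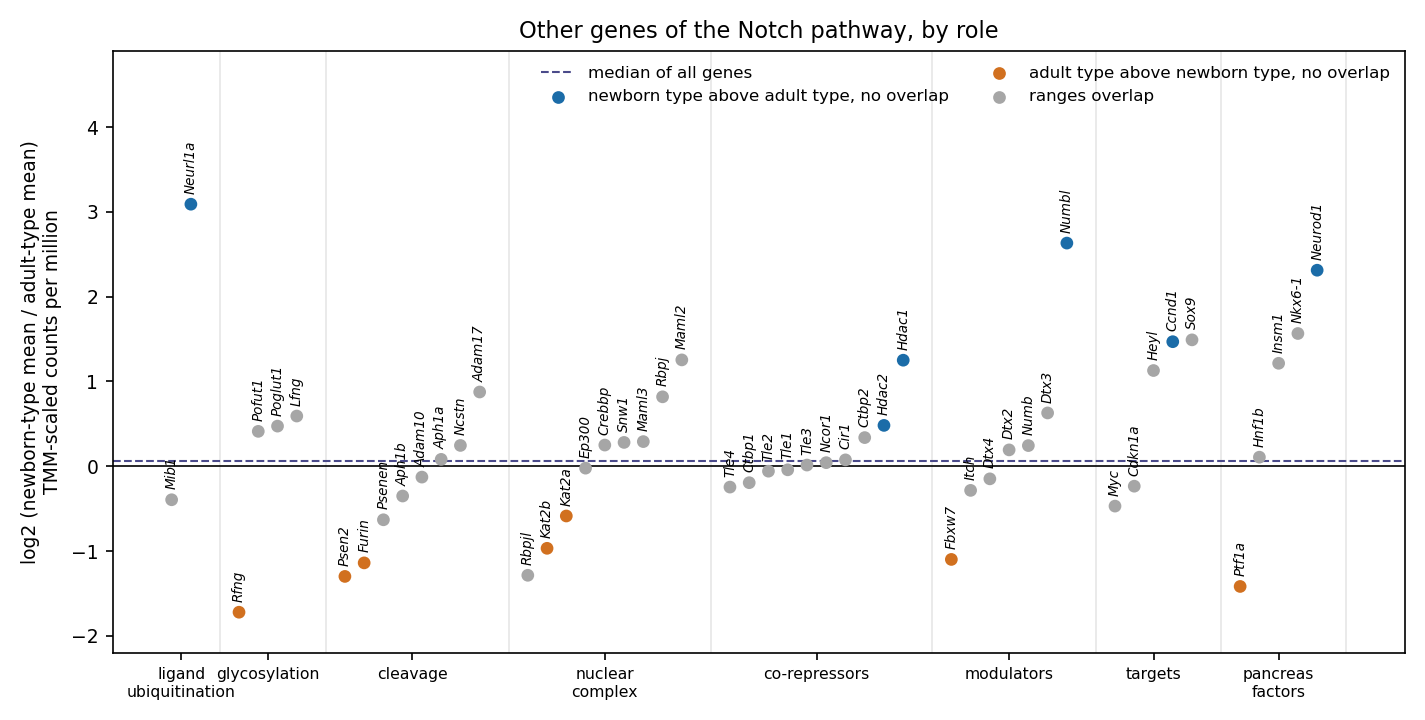
Each point is 1 gene of the wider pathway list, grouped by role, for genes that passed the count filter and are reported here, with the log2 ratio of newborn-type over adult-type mean (TMM-scaled CPM) on the vertical axis and the median of all genes as a dashed line; Dlk1, at 8.13, is left out to keep the axis readable. Blue points (newborn type wholly above) include Neurl1a, Numbl and Neurod1, orange points (adult type wholly above on this scale) include Rfng, Ptf1a and Psen2, and grey points overlap.

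Marker genes of the cells that carry these receptors and ligands had class ratios of the same sign as Dll4, Hey1 and Notch3, and of the opposite sign to the endothelial receptor Notch4 (-0.84). The summed level of 11 endothelial markers was 46.9 to 81.6 in newborn type and 20.4 to 56.8 in adult type (log2 ratio 0.76), with 2 of 11 wholly above in newborn type and none of them at 0 throughout a class. The sum of 9 mural markers was 64.1 to 116 and 20.4 to 35.9 (1.45), with 4 of 9 wholly above and Abcc9 at 0 in all adult-type libraries. The sum of 9 duct markers was 474 to 626 and 261 to 367 (0.74), with 3 of 9 wholly above in newborn type and 1 in adult type. Of all genes passing the filter 13.0% were wholly above in newborn type and 10.3% in adult type. Of the endothelial, mural and duct markers 10, 8 and 9 passed it. The sum of 10 acinar markers was 40196 to 76839 and 315929 to 507877 (-3.02), and that of 6 mesenchymal genes 968 to 1455 and 101 to 211 (3.21). The TCDD female pup 6 and the TCDD male pup 8, which had the most Notch4 of the adult-type libraries, also had the highest endothelial sums, 56.8 and 47.3. Hey1 was highest in the second of these (1.70) but 0.307 in the first. Dll4 was highest in the control dam 5 (1.25, endothelial sum 34.5) and 0.512 in the TCDD female pup 6. In newborn type Notch4 was highest in the control female pup 2 (1.04), whose endothelial sum was 51.2. Lymph node and lymphocyte sums were highest in the control dam 7 (116 and 51.7), the library that reached highest for Dll1 in adult type, and the adipocyte sum in the TCDD dam 8 (157). The part of these cell types in the class differences was not tested.

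Within newborn type a few of the genes varied together over the 14 libraries. Of all pairs of these genes, Notch1 and Jag1 had the highest Pearson r, 0.71, and Dll4 and Hes1 the next, 0.64. The lowest was -0.53, for Notch2 and Notch4. The pairs picked as highest gave 0.36 and 0.42 over the 8 adult-type libraries, and a fall can follow from that choice alone. These values describe points that share library depth. Of 8781 genes with a mean of at least 50 counts, those most like Notch1 were Zmynd11 (0.90) and Xpot (0.89), those most like Jag1 were Rasal2 (0.90) and Brf1 (0.88), and those most like Dll1 were Zbtb7b (0.86) and Shb (0.85). Over the adult-type libraries, not used for that choice, the same pairs gave 0.03 and 0.57, -0.60 and 0.66, and 0.23 and -0.03, so the pairs with Zmynd11, Rasal2, Zbtb7b and Shb had an r of at most 0.23 there. The minimum of 50 counts was set in newborn type only. In adult type Dll1 had 23 reads in all and Rasal2 a mean of 10.5, so the r of their pairs rest on few reads. The other 7 genes had too few counts for this comparison.

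The study's own question, whether TCDD changed the pancreas, was tested within each class because the classes differ so widely, with edgeR's quasi-likelihood test and Benjamini-Hochberg adjustment over all probes. Libraries were taken as independent, although TCDD was given to the dams. By the labels the newborn-type libraries carry only dam or litter numbers 2, 4 and 7 (control) and 6, 8, 10 and 11 (TCDD). No probe of the 10 genes passed an adjusted p of 0.05 in newborn type (8 control and 6 TCDD, 9 member probes tested), where 0% of 17109 probes did, 555 had an unadjusted p under 0.05 and DESeq2 also called 0. Hey1 came nearest, at 0.567 through 0.969 to 1.42 in the libraries labelled control and 0.754 through 1.18 to 1.91 in those labelled TCDD. Its log2 fold change of TCDD over control was 0.44 ± 0.256 (SE, unadjusted p = 0.0987, edgeR adjusted p = 0.99995), and the label groups overlapped. The second was a probe of Dll1, Dll1_69239, at 0.33 ± 0.388 (SE). All 9 tested probes had fold changes above 0, from 0.01 to 0.44 on the log2 scale, and their SE ran from 0.119 to 0.388. These errors are not detection limits: the change of Hey1 exceeded its SE and did not pass. Changes larger than these errors could thus also be missed at this size.

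In adult type 3 member probes passed the filter, 2 control libraries stood against 6 TCDD libraries, and 0% of 13513 probes passed (388 at an unadjusted p under 0.05, 0 with DESeq2). Both control libraries are labelled dam, and 4 of the 6 TCDD libraries are labelled pup, so stage label and TCDD label cannot be told apart in part of this contrast. Notch1 was 15.6 and 21.2 in the control libraries and 8.37, 9.52, 11.3, 14.9, 16.9 and 21.4 in the TCDD libraries, which overlap, and its log2 fold change was -0.42 ± 0.346 (SE, edgeR adjusted p = 0.99993). For Jag1 it was 0.29 ± 0.335 (SE). The test of the difference between the classes (12 member probes tested) called 0% of 19209 probes, 1523 at an unadjusted p under 0.05, and 23 with DESeq2, none of them of these genes. There the difference (newborn minus adult type) of the TCDD fold change was 0.48 ± 0.318 (SE) for Notch1_31178 and -1.62 ± 1.17 (SE) for Hey1. Leaving out the control dam 5 gave 46 called probes, and leaving out the control dam 7, the TCDD dam 8 or the TCDD male pup 11 gave 3, 19 and 1, with no probe of these genes among them.

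**Figure D4:**
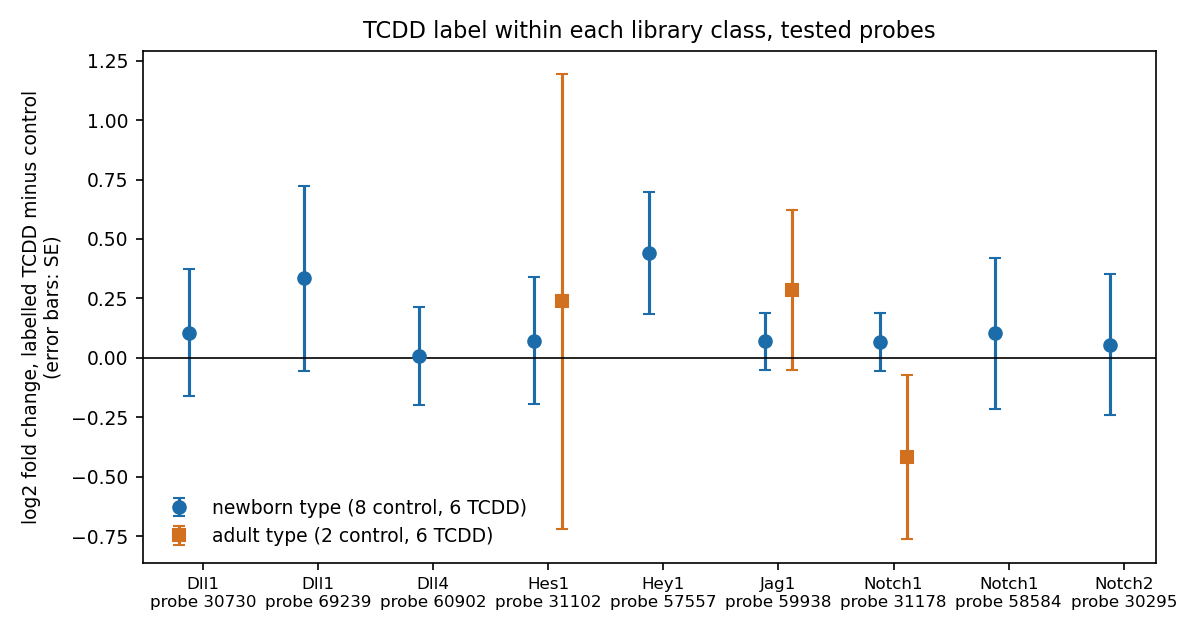
Points give edgeR's log2 fold change of libraries labelled TCDD over control for each tested probe, with standard errors, in newborn type (circles, 8 control and 6 TCDD) and in adult type (squares, 2 control and 6 TCDD). All newborn-type estimates lie between 0.01 and 0.44, the adult-type errors are larger, and no probe passed the adjusted threshold.

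Taken as labelled, dams, female pups and male pups gave 0% of 15594, 17513 and 16176 probes called, and none of these genes among 8, 10 and 8 tested probes (edgeR adjusted p). At an unadjusted p under 0.05 the counts were 150, 299 and 2702 probes, and DESeq2 called 0, 0 and 514. In labelled dams, 2 newborn-type and 2 adult-type libraries in each arm, Notch1_31178 had a log2 fold change of -0.67 ± 0.225 (SE, unadjusted p = 0.0151, edgeR adjusted p = 0.999998) and Hey1 of 1.20 ± 0.863 (SE). In labelled female pups, where 1 of 4 TCDD libraries and 0 of 3 control libraries were of adult type, Jag1 had 0.26 ± 0.202 (SE) and Notch1_31178 0.30 ± 0.249 (SE). In labelled male pups 3 of 4 TCDD libraries and 0 of 3 control libraries were of adult type, so class and TCDD label can hardly be separated there. Dll4 had -1.36 ± 0.490 (SE, unadjusted p = 0.0225, edgeR adjusted p = 0.274) and Dll1_30730 -1.75 ± 0.722 (SE, unadjusted p = 0.0389, edgeR adjusted p = 0.286). Without the TCDD male pup 6, the only newborn-type library of that arm, 6453 of 15379 probes were called (42%), and 2 of 8 tested probes of these genes, Dll4 (-1.74) and Dll1_30730 (-2.43), which then sets adult-type against newborn-type libraries alone. Within newborn type the same 2 genes differed little between labels, by 0.01 ± 0.207 (SE) for Dll4 and 0.11 ± 0.267 (SE) for Dll1_30730.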

How the data were processed

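Whole pancreas RNA of 22 mice was counted with TempO-Seq probes. The authors deposited 1 table of raw counts, a whole number of reads per probe (30146) and library, with no normalization; every column was matched to a sample by its label. Per the submitters' processing notes bcl2fastq 2.17.1.14 was used; aligner and genome build were not given in the sources used here. All values computed here start from those counts. Probes were summed per symbol, and CPM were scaled with edgeR 4.0.16 (TMM; filterByExpr). TCDD labels were compared with edgeR's quasi-likelihood test in R 4.3.3 on every probe passing the filter, Benjamini-Hochberg threshold 0.05, with DESeq2 1.42.0, limma-voom 3.58.1, RLE scaling, no filter and leaving out libraries as alternatives; the scripts were tested on simulated data. Descriptions used Python 3.11.15.

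The genes, the wider list, the marker lists and the classes were chosen with earlier results of these data known. Named were all 10 genes, a set of 20 genes of the wider list, others there whose classes did not overlap, and, where no probe passed, the 2 member probes with the smallest p. Likeness used log2(TMM-scaled CPM + 0.5). The p-values measure the spread between these samples, each library taken as independent. TCDD was given to the dams and libraries share dam or litter numbers, so they do not measure the spread between treated dams. The counts of all 30 replicate pairs differed by more than sampling noise, with a chi-square of at least 8.09 for each degree of freedom. A few genes of the wider list are counted but not reported here by name.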

Additional observations from a re-analysis of the deposited data

Results flagged for a closer look

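Among 39 groups of 4 to 10 libraries in which the highest or lowest value could be compared with the rest, 5 held a library far from the others. The nominal rate of about 1 in 20 does not hold here, since groups share libraries and some values rest on 1 or 3 reads. The 5 are therefore listed and not read as an excess. Jag1 stood at 11.1 in the TCDD female pup 6, against 7.46 in the next adult-type library, and rests on 108 reads. Notch3 stood at 0.425 in the TCDD male pup 8, both among all adult-type libraries and among those labelled TCDD, and rests on 3 reads. Jag2 stood at 0.156 in the control dam 5, the only adult-type library above 0, and rests on 1 read. In newborn type Notch4 stood at 1.04 in the control female pup 2, against 0.579 in the next library labelled control, and rests on 22 reads.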

How the results depend on the processing

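Of 463 recomputed values 410 kept their direction and their side of the threshold, or moved by less than the spread; for the others that moved, the cause was not tested except where the class makeup is named. The median log2 class ratio of the genes, 1.33, was 3.26 on CPM of the library total and 0.99 to 1.68 when 1 adult-type library was left out. With class medians it was 0.70, a value that leaves out Notch2, Notch3 and Jag2. Their adult-type median was 0 and their newborn-type median above 0, so they have no finite ratio. The 0.70 is thus not a fall over the same genes. Without the control dam 5 Jag2 has no finite ratio either. The number of genes whose classes did not overlap, 0, was 7 on library-total CPM, 1 with RLE scaling, 2 without the libraries labelled TCDD (Hey1 and Jag1), 1 without the control dam 7 and the TCDD female pup 6, whose TMM factors exceed 0.5 (Dll1), and 0 to 1 when 1 adult-type library was left out; the last 2 alternatives and leaving out the deepest newborn-type library were chosen after seeing the data. Signs turned for Notch1 (1.64 on library-total CPM, 0.032 without those libraries of higher TMM factor), for Notch4 (1.01 on library-total CPM, 0.11 without the libraries whose class goes against the label, 0.041 without those labelled TCDD) and for Jag2 (-0.94 without those labelled TCDD, where adult type has 1 read). Without a low-count filter the TCDD label called 112 probes in adult type and 9 for the difference between classes, and DESeq2 called 23 for that difference and 514 in labelled male pups. Leaving out 1 library gave 0 to 2 called probes in adult type (2 without the control dam 5), 0 to 46 for the difference and 0 to 6453 in labelled male pups, with 0 to 2 probes of these genes; without the libraries whose class goes against the label, 1 TCDD library is left in male pups, assumed to vary like the controls, and 3 probes were called. With the litter number of the labels as a replicate block (limma-voom), 0 probes were called in each class, and the consensus correlations of 0.0129 and 0.0706 are near 0; libraries go against their stage labels, so the numbers may not pair. Depth limits Notch3, Jag2 and Notch2 in adult type, where few reads were counted.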
